A study of Mus musculus with 6 samples.

Results

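The alveolar macrophage genes described here are 10 genes that mark the resident macrophage of the airspace: Marco, Chil3, Ear1, Ear2, Krt79, Atp6v0d2, Pparg, Ctsk, Plet1 and Fabp1. They were taken by gene symbol from the 47069 genes of the count table, and all 10 were found and passed the filter on low counts, with at least 77 counts in every library. Whole-lung mRNA was sequenced at ZT10, that is 10 h after lights on under a 12h:12h light/dark cycle, from 3 adult WT mice (WT4, WT5 and WT6) and 3 adult Zpbp2 KO mice (KO4, KO5 and KO6), with 1 library per mouse. Both groups carry the C57BL/6J strain label. The KO mice were of the B6.129S7-Zpbp2tmZuk/Mmjax line, in which the 5′ part of Zpbp2 is deleted in the germ line and hence in every cell type, and the WT mice were C57BL/6J mice from the same colony. Whether the WT mice were littermates was not given in the sources used here, nor was the sex of each mouse, although Xist, which is transcribed from the inactive X chromosome of females, had at least 15033 counts in all 6 libraries.

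Alveolar macrophages live on the air side of the alveolus, where they take up inhaled particles, microbes and spent surfactant. The growth factor GM-CSF, made by the alveolar epithelium, acts through the receptor subunits Csf2ra and Csf2rb on the transcription factors PU.1 (encoded by Spi1) and PPARγ (encoded by Pparg), which set up their lipid-handling program. The 10 genes cover several sides of that cell: a scavenger receptor (Marco), a chitinase-like lectin (Chil3), a pair of secreted ribonucleases (Ear1 and Ear2), a nuclear receptor (Pparg), lysosomal proteins (Ctsk and Atp6v0d2), a fatty acid binding protein (Fabp1), a surface glycoprotein (Plet1) and a keratin (Krt79).

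Library totals ranged from 19981428 to 46796908 counts, KO5 being the deepest, so that 3 counts corresponded to between 0.0629 and 0.148 CPM (counts scaled to a common library size of 1e+06). Zpbp2 had 1, 2 and 2 counts in the WT libraries and 0 counts in each KO library, too few to check the deletion in lung. KO5 also stood apart in lymphocyte genes: the summed level of 10 B cell genes ran from 139 to 154 CPM in the WT mice and from 259 to 1096 CPM in the KO mice, with the B cell surface gene Ms4a1 at 173 CPM in KO5.

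Marco was higher in the KO lungs, and it was the 1 gene of the 10 to pass the test. Its mean level was 9.89 ± 1.28 CPM in WT and 23.7 ± 1.76 CPM in KO (SD, n = 3 each), a 2.39-fold difference. The other 9 genes had log2 fold changes between -0.15 and 0.44, and none passed (adjusted p between 0.0844 and 0.888, edgeR quasi-likelihood test with Benjamini-Hochberg adjustment over 17037 genes). Over all genes tested, 6.39% were called at an adjusted p of at most 0.05, 3.72% as higher and 2.67% as lower in KO, so a count of 1 higher and 0 lower among 10 is close to what the whole table gives. At an unadjusted p under 0.05 the count was 3 of 10 (Marco, Ear2 and Pparg) against 25.5% of all genes. The fold changes were above 1 for 9 of the 10 genes, with a median log2 fold change of 0.21 (0.21 without Marco) beside 0.0030 over all genes tested. In whole-lung RNA, fewer cells of a type and less RNA per cell cannot be told apart, and the same holds for more cells and more RNA per cell.

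**Figure D1:**
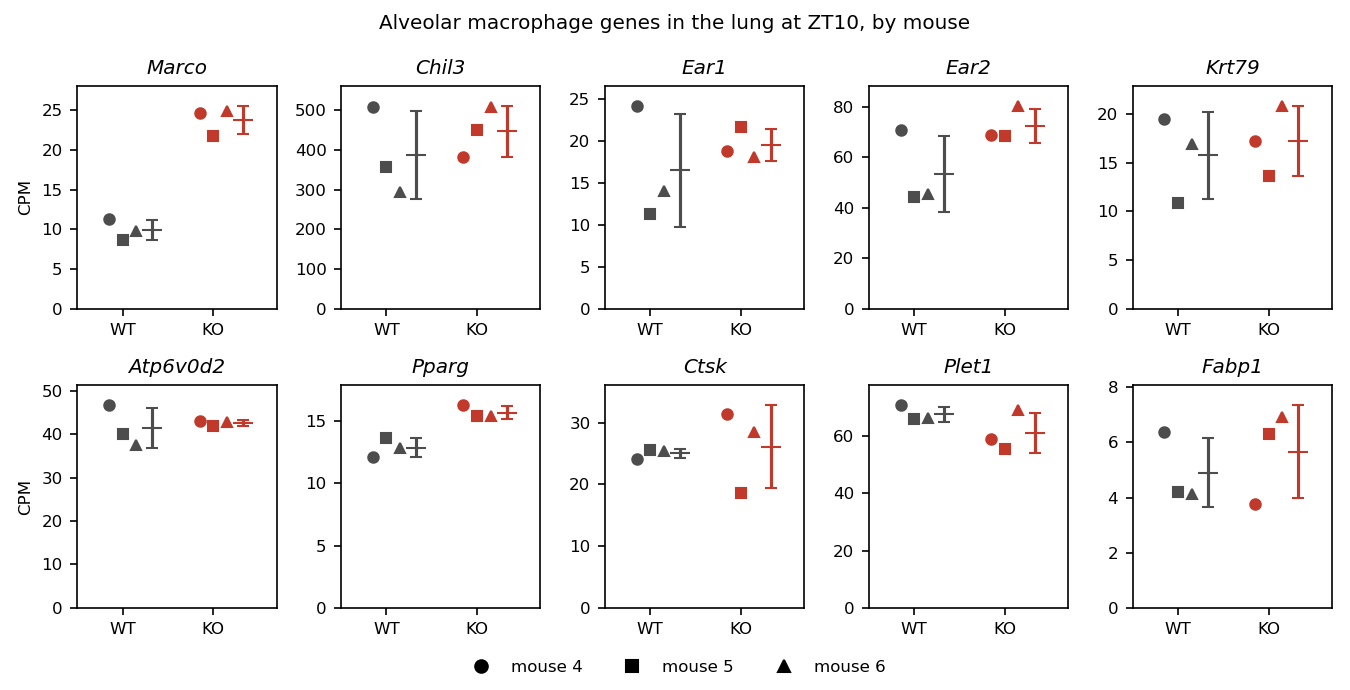
CPM of each of the 10 genes in each mouse (y axes start at 0 and differ between panels), with the mean and SD of each group beside the points. Marco (WT at most 11.2, KO at least 21.7 CPM) and Pparg (WT at most 13.6, KO at least 15.4 CPM) have groups that do not overlap; the other 8 panels overlap.

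Marco, the macrophage receptor with collagenous structure, binds bacteria and inhaled particles. It measured 11.2, 8.67 and 9.77 CPM in WT4, WT5 and WT6, and 24.6, 21.7 and 24.8 CPM in KO4, KO5 and KO6. Every KO mouse thus stood above every WT mouse, and the gap between the groups was wider than the range within either. The log2 fold change was 1.26 (SE 0.114, 95% interval 0.99 to 1.53), or 2.39-fold with an interval of 1.99 to 2.88, at an adjusted p of 0.00665 (edgeR). It stayed below the second threshold used by the study, a log2 fold change of at least 1.5, which together with the adjusted p leaves 0.64% of all genes. Leaving out 1 mouse at a time gave log2 fold changes from 1.17 to 1.36 and a call in 5 of the 6 fits; without WT5 it was 1.17 at an adjusted p of 0.0557 (edgeR), in a fit where 1 gene of the whole table passed. The two-sided exact permutation test of log2 CPM gave p = 0.1, the smallest value that 3 mice against 3 allow. The gene lies on chromosome 1 at chr1:120474538-120505024 on the minus strand (GRCm38).

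The 250 bases before the Marco start (GRCm38.p6, chr1:120505025-120505274, minus strand, from RefSeq) are shown because Marco was the gene that rose; the capitals mark the letters GAGGAA, the core that PU.1 binds.
Marco upstream: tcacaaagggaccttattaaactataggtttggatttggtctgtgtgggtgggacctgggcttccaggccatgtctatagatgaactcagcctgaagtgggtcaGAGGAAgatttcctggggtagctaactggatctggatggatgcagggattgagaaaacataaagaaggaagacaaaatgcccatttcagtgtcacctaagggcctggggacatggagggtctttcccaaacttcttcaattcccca
These letters, searched on both strands, were present in 28.3% of 32851 mouse promoters of 250 bases before to 50 bases after a start. They occurred in 4 of the 11 promoters that RefSeq lists for 9 of the 10 genes (Atp6v0d2 is the one not listed), those of Ctsk, Fabp1, Marco and Pparg. The direct repeat that PPARγ binds with RXR (the letters AGGTCA repeated after 1 free base) was in 0.04% of all promoters and in 0 of the 11. The E-box CACGTG, bound by clock proteins, was in 7.15% of all promoters and in 0 of the 11, and TAGGTCA, the core of the sites of Nr1d1 and ROR receptors, was in 2.61% and, of the 10 genes, in Fabp1. A match describes letters in this window and shows no binding.

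Pparg was the other gene whose groups did not overlap, although it did not pass the test. It encodes the fatty acid-sensing nuclear receptor that alveolar macrophages need for surfactant handling, and adipocytes express it too. Pparg measured 12.1, 13.6 and 12.8 CPM in WT4, WT5 and WT6, and 16.2, 15.4 and 15.4 CPM in KO4, KO5 and KO6. The KO mice lay above the WT mice by a small margin, with a log2 fold change of 0.29 (SE 0.0818, 95% interval 0.09 to 0.48) at an adjusted p of 0.0844 (edgeR) and an exact permutation p of 0.1. Groups that do not overlap are common in these data: 2 of the 10 genes had KO above WT, against 17.0% of all genes tested, and none had KO below WT, against 15.6%. Pparg is at chr6:115360951-115490399, plus strand.

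Chil3, also called Ym1, is a secreted chitinase-like protein that monocytes and other activated macrophages can also make. Its levels were 509, 358 and 295 CPM in WT4, WT5 and WT6, and 382, 450 and 509 CPM in KO4, KO5 and KO6. WT4 and KO6 were alike at the top and the groups overlapped, so that the log2 fold change of 0.21 (SE 0.201, 95% interval -0.27 to 0.68) did not pass (adjusted p = 0.572, edgeR). The interval allows a fold change between 0.831 and 1.60. Chil3 is at chr3:106147554-106167564, minus strand. Its close copy Chil4, with 94.4% identical coding columns, had at most 3 counts in any library.

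The ribonucleases Ear1 and Ear2 belong to the eosinophil-associated family, several members of which are made by macrophages. Ear1 measured 24.2, 11.3 and 14.0 CPM in WT4, WT5 and WT6, and 18.8, 21.7 and 18.1 CPM in KO4, KO5 and KO6. Ear2 measured 70.9, 44.1 and 45.4 CPM in the WT mice and 68.7, 68.5 and 80.1 CPM in the KO mice, in the same order. In both genes WT4 stood within or above the KO range while WT5 and WT6 lay below every KO mouse. The log2 fold changes were 0.24 (SE 0.260, adjusted p = 0.606) for Ear1 and 0.44 (SE 0.182, 95% interval 0.01 to 0.87, adjusted p = 0.187) for Ear2 in edgeR. Without WT4 the value for Ear2 was 0.69 at an adjusted p of 0.0354 (edgeR), which would be a call, and that for Ear1 was 0.62 without one. The ratio of Ear2 to Ear1 within a mouse was 3.36 ± 0.494 in WT and 3.75 ± 0.636 in KO (SD, n = 3), and its groups overlapped.

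Both genes lie on chromosome 14, Ear1 at chr14:43818765-43875517 on the minus strand and Ear2 at chr14:44102654-44103534 on the plus strand. Their coding sequences share 445 of 468 aligned columns (95.1%), with 20 mismatches and 3 gap columns. Whether a read can tell them apart depends on its length and position. The stretches of 120 bases with the fewest and the most differences are shown from the GRCm38 transcripts, with the differing bases in capitals. The most similar stretch, coding bases 342 to 461 of Ear1 and 345 to 464 of Ear2, has 2 differences.
Ear1 similar: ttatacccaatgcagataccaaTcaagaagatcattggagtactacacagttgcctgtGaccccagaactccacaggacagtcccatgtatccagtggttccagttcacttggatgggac
Ear2 similar: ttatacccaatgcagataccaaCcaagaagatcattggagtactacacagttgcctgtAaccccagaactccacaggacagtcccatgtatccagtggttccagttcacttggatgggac
The least similar, coding bases 51 to 170 of both, has 8.
Ear1 least similar: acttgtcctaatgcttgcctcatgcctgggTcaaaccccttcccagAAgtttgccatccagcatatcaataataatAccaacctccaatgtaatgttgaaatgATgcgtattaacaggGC
Ear2 least similar: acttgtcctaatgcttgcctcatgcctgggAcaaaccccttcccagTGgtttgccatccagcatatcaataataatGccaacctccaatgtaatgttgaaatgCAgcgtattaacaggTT
Of all 50-base windows of the longest coding Ear1 transcript, 57.4% occur letter for letter in another gene, among them Ear2, Ear10 and the pseudogene Ear-ps9. The 23.9% of its 100-base windows that recur do so in Ear-ps9 and Ear10, and none in Ear2. For Ear2 the shares were 41.5% and 13.9%, the latter in Ear10 and the pseudogene Ear-ps2. The values of Ear1 and Ear2 are therefore uncertain to the extent that reads in such stretches were discarded or split, and the read length was not given in the sources used here. Ear10, 97.0% identical to Ear2, had at most 1 count per library and Ear6 at most 10, so few reads were assigned to those copies.

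**Figure D2:**
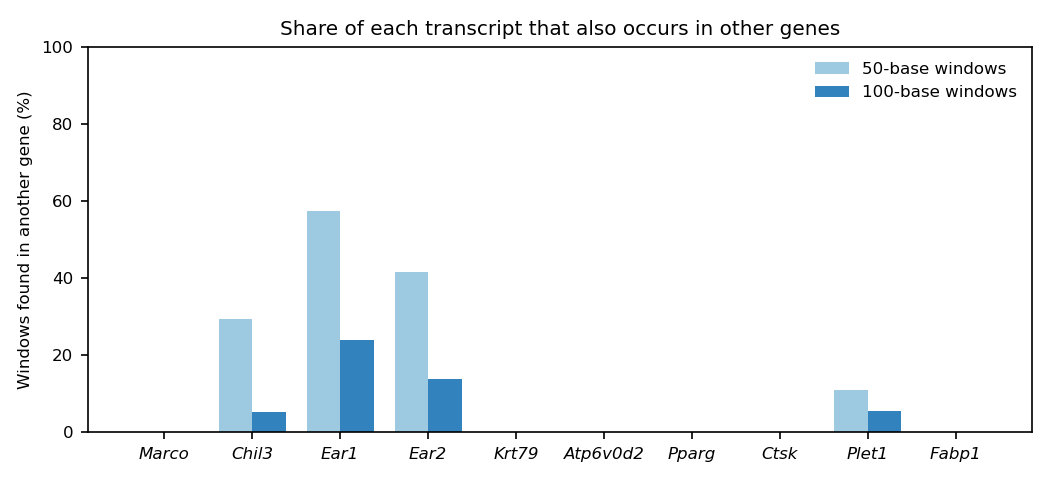
Percent of the windows of 50 bases (light) and 100 bases (dark) in the longest coding transcript of each gene that occur letter for letter in a transcript of another gene. Ear1, Ear2 and Chil3 share 57.4%, 41.5% and 29.4% of their 50-base windows and Plet1 11.0%; the other 6 genes, Marco among them, share 0%.

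Chil3 shares 29.4% of its 50-base windows with other genes. Plet1 shares 11.0% with genes that include the antisense transcript Plet1os, Gm12127, Iqsec3 and Phf20l1. The 5.54% of its 100-base windows that recur do so in Plet1os, whose exons overlap Plet1 by 261 bases on the opposite strand. Whether counting used the strand was not given in the sources used here, so reads of Plet1 and Plet1os may not have been separated. Marco, Krt79, Atp6v0d2, Pparg, Ctsk and Fabp1 share no window of either length in the 1 transcript searched for each gene, its longest coding one. Exons outside that transcript were not searched, so that for Krt79, for example, 2097 of 4753 exonic bases were covered, and for Pparg 2125 of 2953.

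Neither lysosomal gene passed the test. Atp6v0d2, a subunit of the proton pump that acidifies lysosomes and which osteoclasts also make, had one of the narrower intervals of the 10. It measured 46.6, 40.1 and 37.5 CPM in WT4, WT5 and WT6, and 43.0, 41.7 and 42.9 CPM in KO4, KO5 and KO6. The KO mice fell inside the WT range, and the fold change of 1.03 had a 95% interval of 0.897 to 1.18 (adjusted p = 0.817, edgeR), which leaves no room for a change the size of that of Marco. Ctsk, the collagen-cleaving protease cathepsin K, is also made by osteoclasts and fibroblasts. It measured 24.2, 25.5 and 25.4 CPM in the WT mice and 31.3, 18.7 and 28.4 CPM in the KO mice, WT4 to WT6 and KO4 to KO6 in order. The WT values were nearly equal and the KO values lay on both sides of them, KO5 lowest, with a log2 fold change of 0.05 (SE 0.178, 95% interval -0.37 to 0.47, adjusted p = 0.888, edgeR). The positions are chr4:19876841-19922605 on the minus strand for Atp6v0d2 and chr3:95499256-95509362 on the plus strand for Ctsk.

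Fabp1 and Krt79 spread widely within groups. Fabp1, which carries fatty acids in the cytosol and is best known from liver, measured 6.36, 4.22 and 4.14 CPM in WT4, WT5 and WT6, and 3.76, 6.31 and 6.91 CPM in KO4, KO5 and KO6. One WT mouse was as high as KO5 and one KO mouse was below all WT mice, and the log2 fold change was 0.21 (SE 0.271, 95% interval -0.42 to 0.85, adjusted p = 0.673, edgeR). Krt79, a keratin otherwise found in hair follicle and sebaceous duct, measured 19.5, 10.8 and 16.9 CPM in the WT mice and 17.3, 13.6 and 20.8 CPM in the KO mice. WT5 and KO5 were the lowest of their groups, and the log2 fold change was 0.12 (SE 0.236, 95% interval -0.44 to 0.67, adjusted p = 0.802, edgeR). Fabp1 is at chr6:71199827-71205023 on the plus strand and Krt79 at chr15:101929332-101940324 on the minus strand.

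Plet1, a membrane-anchored glycoprotein that epithelial progenitors also carry, was the 1 gene of the 10 with a lower mean in KO. It measured 70.6, 65.9 and 66.1 CPM in WT4, WT5 and WT6, and 58.9, 55.6 and 68.9 CPM in KO4, KO5 and KO6. KO6 stood inside the WT range, and the log2 fold change of -0.15 (SE 0.0840, 95% interval -0.34 to 0.05) did not pass (adjusted p = 0.324, edgeR). Plet1 is at chr9:50494525-50505482 on the plus strand.

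Per kilobase of exonic length, the level order in the WT lungs ran from Chil3 at 237 ± 67.6 RPKM (CPM per kilobase), through Ear2 at 74.3, Plet1 at 34.7, Ear1 at 22.6 ± 9.27, Ctsk at 16.6, Atp6v0d2 at 15.2, Fabp1 at 8.87, Marco at 5.14 ± 0.667 and Pparg at 4.35, to Krt79 at 3.32 RPKM (SD, n = 3). The WT ranges of the neighbours Ear1 and Ctsk, Ctsk and Atp6v0d2, Marco and Pparg, and Pparg and Krt79 overlapped, so their order is not resolved. In the KO lungs Marco stood at 12.3 ± 0.915 RPKM and Fabp1 at 10.2 RPKM, with overlapping ranges, whereas in WT every Fabp1 value was above every Marco value.

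Most of the genes were highest in the same WT mouse. WT4 was the highest WT mouse for 8 of the 10 genes (for 54.5% of 22 other alveolar macrophage genes and 33.1% of all genes counted in every library), WT5 was highest for Pparg and Ctsk, and WT6 for none. WT4 exceeded every KO mouse in Ear1, Atp6v0d2 and Plet1 and, by a narrow margin, in Chil3. The highest WT mouse was 2.14 times the lowest for Ear1, 1.80 times for Krt79, 1.73 times for Chil3 and 1.61 times for Ear2, but 1.07 times for Plet1 and 1.06 times for Ctsk. Marco sat between these, at 1.29 times in WT and 1.14 times in KO.

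**Figure D3:**
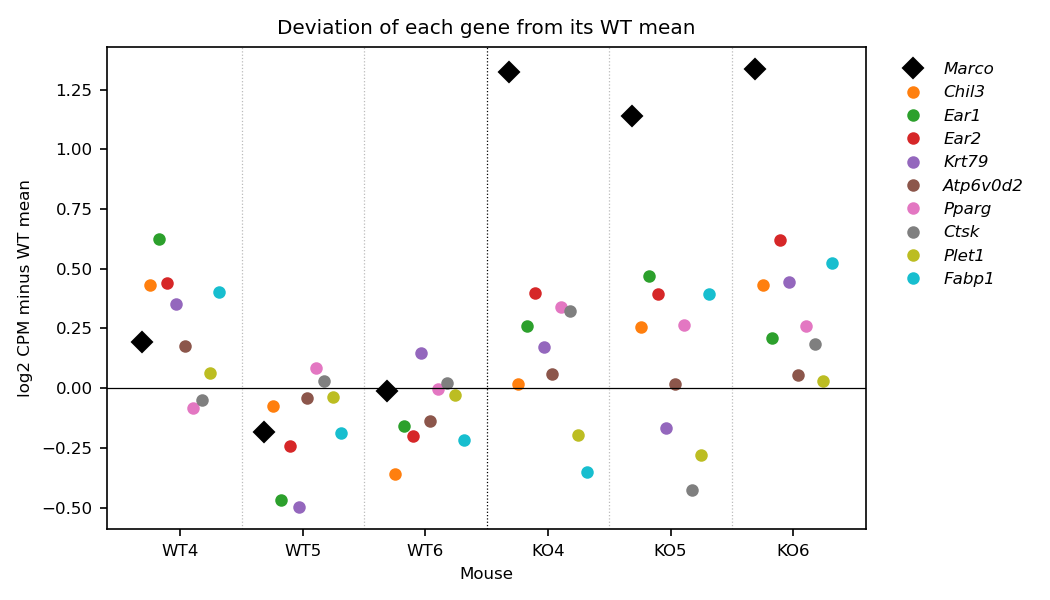
log2 CPM minus the mean log2 CPM of the WT mice, for each of the 10 genes in each mouse; the horizontal offset within a mouse separates genes only. Marco (black diamonds) lies above every other gene in all 3 KO mice, while in WT4 it lies among the others.

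Dividing each gene by others in the same mouse shows the difference between Marco and the rest. Marco over the geometric mean of the other 9 genes was 0.311, 0.322 and 0.349 in WT4, WT5 and WT6, and 0.757, 0.672 and 0.667 in KO4, KO5 and KO6. The groups did not overlap, and the ratio rose from a mean of 0.327 ± 0.0194 to 0.699 ± 0.0503 (SD, n = 3); no test was run on it, since Marco was picked out by its values. The geometric mean of the other 9 was 36.1, 26.9 and 28.0 CPM in the WT mice and 32.6, 32.3 and 37.2 CPM in the KO mice, with overlap.

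Of 13 genes of macrophages in general 7 passed as higher in the KO lungs and 0 as lower, with a median log2 fold change of 0.67. The shares over all genes tested, 3.72% higher and 2.67% lower, are the background for this count and for the lists below. Among them Cd68, a lysosomal glycoprotein, went from 27.2 ± 4.78 to 46.9 ± 2.23 CPM (log2 fold change 0.79, SE 0.120, adjusted p = 0.0211, edgeR). Ctss (cathepsin S) had a log2 fold change of 0.67 (adjusted p = 0.0216), Tyrobp, a signalling adaptor, 0.87 (0.0208) and Csf1r, the receptor for M-CSF, 0.57 (0.0262). The other 6 did not pass: Fcgr1 (0.75), Adgre1 (0.68), Ctsd (0.09), Cd14 (0.02), Lyz2 (-0.04) and Mertk (-0.17). Adgre1 (adjusted p = 0.0538, edgeR) was higher in every KO mouse than in every WT mouse, and Mertk (adjusted p = 0.199) was lower. The count fell to 0 without WT5, WT6 or KO6, each left out alone. The geometric mean of the other 9 alveolar macrophage genes over that of these 13 was 0.367, 0.343 and 0.330 in the WT mice, against 0.285, 0.277 and 0.284 in the KO mice, lower in every KO mouse. Marco over the same 13 was 0.114, 0.110 and 0.115 in the WT mice, against 0.215, 0.186 and 0.189 in the KO mice, higher in every KO mouse. No test was run on either ratio, since 7 of these 13 genes had passed as higher and Marco was picked out by its values. Groups that do not overlap occurred in 32.6% of all genes tested.

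Some of the other genes known from alveolar macrophages passed. Of 22 tested, 4 were called as higher and 0 as lower, with a median log2 fold change of 0.18. Over all genes tested, 3.72% were called as higher and 2.67% as lower. Those 4 were Serpinb1a, a protease inhibitor (28.5 ± 3.52 to 44.5 ± 4.62 CPM, log2 fold change 0.64, adjusted p = 0.0265, edgeR), the GM-CSF receptor subunits Csf2rb (39.2 ± 6.66 to 65.8 ± 9.22 CPM, 0.75, adjusted p = 0.0322) and Csf2rb2 (14.7 ± 1.76 to 23.3 ± 3.26 CPM, 0.68, adjusted p = 0.0345), and Itgax, which encodes CD11c (59.7 ± 11.7 to 90.2 ± 5.74 CPM, 0.60, adjusted p = 0.0452). Csf2rb and Csf2rb2 are close copies whose reads can be split between them, and all 4 genes are also expressed by other myeloid cells. Siglecf, the lectin that sets alveolar macrophages and eosinophils apart, measured 15.3, 10.2 and 9.09 CPM in WT4, WT5 and WT6, and 14.3, 17.4 and 14.9 CPM in KO4, KO5 and KO6, and did not pass (log2 fold change 0.44, adjusted p = 0.223). As for Ear1 and Ear2, WT4 was level with the KO mice, and WT5 and WT6 were below them. Car4, a carbonic anhydrase that lung endothelium also makes, had a log2 fold change of -0.17 (adjusted p = 0.502). The summed level of the list was 1650 to 1805 CPM in WT and 1766 to 1945 CPM in KO, and Ear10 was at or under 3 counts in all libraries. The count of 4 went to 2 without WT4 or KO5 and to 0 without WT5, WT6 or KO6.

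**Figure D4:**
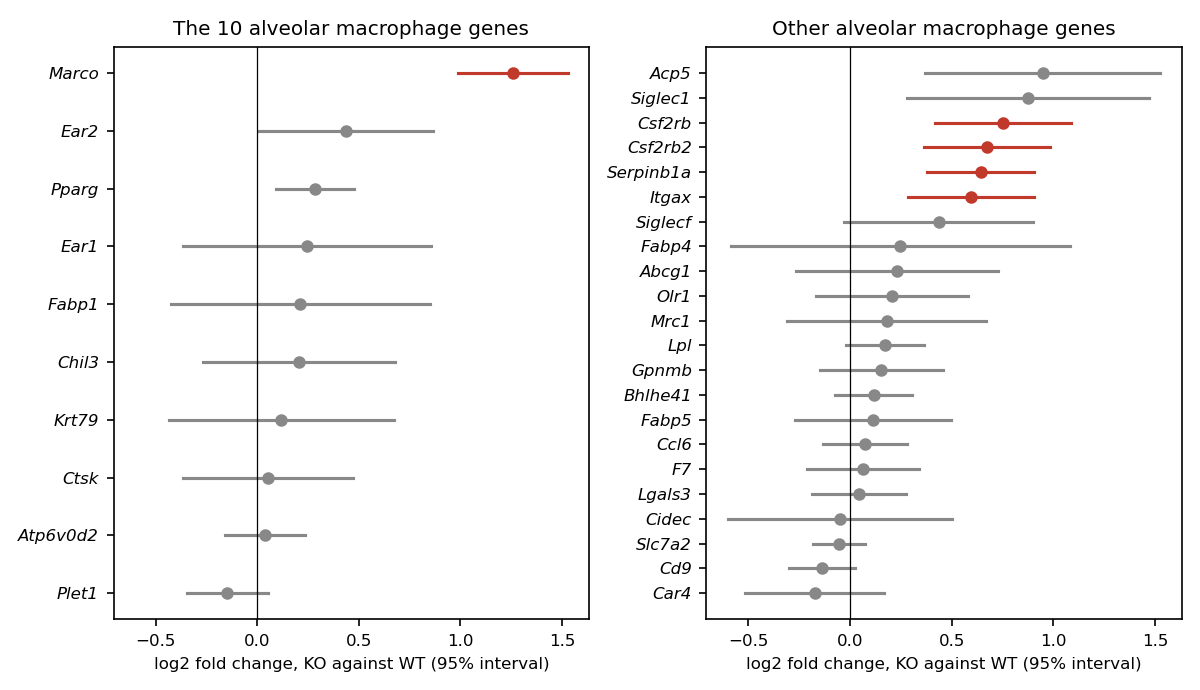
log2 fold change, KO against WT, with its 95% interval, for the 10 genes (left) and for 22 other alveolar macrophage genes (right); red marks an adjusted p of at most 0.05. Marco at 1.26 stands to the right of the other 9, whose values lie between -0.15 and 0.44, and the 4 called genes on the right lie between 0.60 and 0.75. Acp5 at 0.95 and Siglec1 at 0.87, not called, lie beyond them, and 18 of the 22 lie above 0.

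In the GM-CSF and PPARγ pathway 3 of 25 genes passed as higher and 0 as lower, with a median log2 fold change of 0.12. They were the receptor subunits Csf2rb and Csf2rb2 above and Spi1. Spi1 measured 27.4, 24.2 and 24.6 CPM in WT4, WT5 and WT6, and 40.8, 44.3 and 52.1 CPM in KO4, KO5 and KO6. Every KO mouse was above every WT mouse (log2 fold change 0.85, SE 0.102, adjusted p = 0.0121, edgeR), and Spi1 is expressed by myeloid cells in general and by B cells. The count was 5 with upper-quartile scaling and 5 with DESeq2, 1 without KO5 or KO6 and 0 without WT5 or WT6. Among 12 genes of surfactant and lipid clearance, 1 passed, Lipa, the lysosomal acid lipase (98.9 ± 2.43 to 115 ± 4.44 CPM, log2 fold change 0.22, adjusted p = 0.0491), a call that was lost without the filter, in the exact test and with any 1 mouse left out. Scd1, a fatty acid desaturase, and Cd36, a fatty acid transporter that endothelium expresses strongly, had log2 fold changes of -0.04 (adjusted p = 0.931) and -0.02 (adjusted p = 0.874).

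Marco is 1 of 11 scavenger receptor genes measured, of which 3 passed as higher and 0 as lower, with a median of 0.06. Beside Marco these were Cd68 and Msr1, the class A receptor closest in kind to Marco, which went from 2.59 ± 0.207 to 5.88 ± 1.42 CPM (log2 fold change 1.18, SE 0.200, adjusted p = 0.0255, edgeR). The count was 2 without WT4, 1 without WT6 or KO6, and 0 without WT5.

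Monocyte, interstitial macrophage and neutrophil lists each held genes that passed as higher in the same lungs as Marco. Of 12 monocyte genes 8 passed as higher and 0 as lower, with a median log2 fold change of 1.13 and a summed level of 1650 to 1698 CPM in WT and 1806 to 2018 CPM in KO. Most of that sum was Ace, which endothelium also makes and which did not pass (1430 to 1477 CPM in WT, 1354 to 1640 CPM in KO, log2 fold change 0.01). The 8 included Plac8 (1.46, adjusted p = 0.0109), Spn (1.27, 0.0118), Cx3cr1 (1.52, 0.0118) and Ccr2 (0.83, 0.0176), where each pair is the log2 fold change and the edgeR adjusted p. The monocyte count was 0 without WT5 or WT6 and 5 without WT4 or KO6. Of 12 interstitial macrophage genes 4 passed as higher, Ms4a7 (0.90, adjusted p = 0.0271) and the complement genes C1qb (0.71, 0.0321), C1qa (0.65, 0.0361) and C1qc (0.75, 0.0373), and 0 as lower, with a median log2 fold change of 0.53 and a summed level of 1005 to 1065 CPM in WT and 979 to 1148 CPM in KO. Lyve1, which lymphatic endothelium also makes and which was chosen after its values were seen, lay lower in every KO mouse (349 to 203 CPM on average, log2 fold change -0.78) at an adjusted p of 0.0698 in edgeR, 0.0382 in DESeq2 and 0.00706 in the edgeR exact test. Tmem119 had a log2 fold change of -0.11 (adjusted p = 0.528). Of 8 neutrophil genes tested 3 passed as higher, S100a9 (1.12, adjusted p = 0.0186), S100a8 (1.01, 0.0241) and Retnlg (1.29, 0.0246), with sums of 78.1 to 187 CPM in WT and 148 to 220 CPM in KO; DESeq2 called 5. The sum depends on Ltf, a granule gene that ran from 10.4 to 98.7 CPM among WT and from 4.64 to 59.7 CPM among KO mice; Ltf and Ngp had log2 fold changes of -0.39 and -0.34 and did not pass. The interstitial and the neutrophil counts were 0 without WT4, WT5 or KO6, and without WT6 they were 0 and 2. The part of these cells in the Marco result was not tested.

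Eosinophils share the Ear family and Siglecf with alveolar macrophages. Epx, eosinophil peroxidase, was at or under 3 counts in all 6 libraries, and 0 of the 4 tested eosinophil genes passed (edgeR; 2 at an unadjusted p under 0.05, 1 with DESeq2), with summed levels of 13.1 to 18.3 CPM in WT and 21.4 to 37.9 CPM in KO. Most of the WT sum was Siglecf, at 9.09 to 15.3 CPM, which is no eosinophil-specific gene. In the KO sum Il5ra reached 13.2 CPM in KO5 (log2 fold change 2.79, adjusted p = 0.0794, edgeR). Genes of B cells (0 of 10; Ms4a1 at 2.06 and Cd22 at 1.90) and T cells (0 of 8; Cd4 at 1.30 and Lck at 0.78) had high log2 fold changes that did not pass, with medians of 1.91 and 0.87. For T cell genes the sum was 47.2 to 51.7 CPM in WT and 54.0 to 142 CPM in KO. At an unadjusted p under 0.05 all 10 B cell and 7 T cell genes were counted (edgeR), against 25.5% of all genes tested. DESeq2 called 8 B cell and 5 T cell genes. With KO4 or with KO5 left out, 8 of the 10 B cell genes passed, and with KO4 left out 4 of the 8 T cell genes did.

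Other cell types that express members of the 10 showed few calls. Of 10 osteoclast and proton pump genes tested 0 passed, with a median log2 fold change of 0.11 and 8 of the 10 above 0. Groups did not overlap for 5 of them, all with KO above, against 17.0% of all genes tested. Chosen after their values were seen, Dcstamp, Acp5 and Mmp9 had log2 fold changes of 1.30, 0.95 and 0.75 (edgeR adjusted p 0.0584, 0.0656 and 0.113). The proton pump genes Atp6v1a and Atp6v1b2 had -0.09 and 0.01. The fibroblast and adipocyte lists, which bear on Ctsk and Pparg, had 0 of 10 and 0 of 7 with medians of -0.15 and 0.0048. Log2 fold changes were above 0 for 3 of the 10 fibroblast and 4 of the 7 adipocyte genes. Chosen after their values were seen, the fibroblast genes Col3a1 and Pdgfra had -0.43 and -0.30 (edgeR adjusted p 0.0671 and 0.122). The adipocyte genes Lep and Cfd, chosen likewise, had 2.11 and -0.82 (0.113 and 0.160), with Lep at 15.7 CPM in KO5. The fibroblast genes Inmt (0.03) and Mfap4 (0.11) and the adipocyte lipases Pnpla2 (0.0048) and Lipe (-0.00089) did not pass. Club cell (0 of 6, median -0.35) and alveolar epithelial genes (0 of 10, median -0.19), among them Scgb1a1, Cbr2, Sftpc and Sftpa1, did not pass either. Unadjusted p was under 0.05 (edgeR) for 5 osteoclast and proton pump, 3 fibroblast, 2 adipocyte, 2 club cell and 4 alveolar epithelial genes. These counts are out of 10, 10, 7, 6 and 10 tested, and the share over all genes tested was 25.5%. DESeq2 called 2, 2, 0, 2 and 4. Of 8 endothelial genes 1 passed as lower, Cldn5 (370 to 298 CPM, log2 fold change -0.31, adjusted p = 0.0362, edgeR), a call lost with any 1 mouse left out, while Pecam1 and Cdh5 did not pass.

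**Figure D5:**
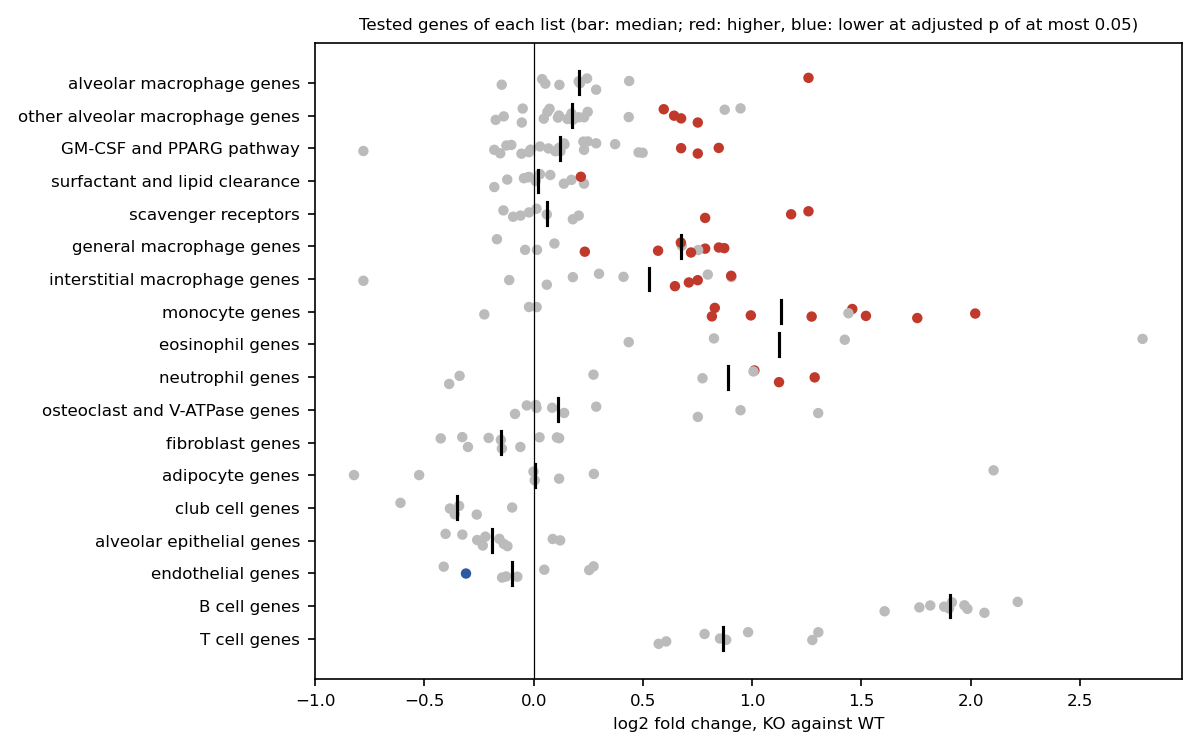
log2 fold change, KO against WT, of every tested gene of each list; vertical bars are medians, red dots are higher and blue dots lower at an adjusted p of at most 0.05, and vertical jitter separates genes only. The median is 0.21 for the 10 alveolar macrophage genes, 0.67 for general macrophage genes and 1.13 for monocyte genes.

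The 5 genes outside the list whose profile over the 6 libraries was most like the mean standardized profile of the 10 were Gm12183 (Pearson r 0.99), Lhpp (0.99), Irgm1 (0.99), Zfp712 (0.99) and Gm38218 (0.99). Irgm1, an interferon-induced GTPase, measured 72.9, 50.4 and 53.3 CPM in WT4, WT5 and WT6, and 68.1, 67.1 and 79.2 CPM in KO4, KO5 and KO6. These follow the shared part of the 10 profiles, high in WT4 and KO6 and low in WT5 and WT6, rather than the pattern of Marco. With 6 libraries high values of r are easy to reach, and 114 of 17003 genes had r of at least 0.9.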

How the data were processed

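Total lung RNA (1 library per mouse, TruSeq stranded mRNA) was sequenced by the authors. Per the submitters' processing notes and the study's methods, reads were processed with Trimmomatic 0.36, STAR 2.5.3a (GRCm38), Picard 2.9.0 and HTSeq 0.6.0. The authors deposited whole-number read counts per Ensembl gene without normalization; annotation release and strand setting were not given in the sources used here. Groups follow the sample labels. Counts were fitted in edgeR 4.0.16 (R 4.3.3; TMM, filterByExpr with minimum count 10 and minimum total 15, quasi-likelihood test), and Benjamini-Hochberg values were taken over all 17037 genes tested of 47069. CPM divides counts by the TMM-scaled library total; RPKM divides by exonic length. Alternatives were other scalings, other filters, edgeR's exact test, DESeq2 1.42.0, a replicate block and leaving out each mouse. The test was also run on simulated data with planted changes larger than that of Marco, which does not check calls of smaller size. Positions and transcripts are from GENCODE M21 (46574 genes placed by ID), promoters from RefSeq. Intervals of the fold changes are 95% intervals from the fitted error, and floors in counts cover counting error only. The 10 genes and all lists were chosen with earlier results of these data known. Named beyond the 10 are, per list, up to 4 called genes in each direction by smallest adjusted p (if fewer than 2, the 2 of highest mean CPM), copies of the 10, the 5 genes of most similar profile, Zpbp2 and the markers Siglecf, Itgax and Car4. Xist, Lyz2, Cd14, Mertk, Adgre1, Fcgr1, Ctsd, Lyve1, Tmem119, Ace, Ltf, Ngp and Epx were named outside this rule and were not fixed beforehand. The same holds for Acp5, Siglec1, Dcstamp, Mmp9, Col3a1, Pdgfra, Lep and Cfd.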

Additional observations from a re-analysis of the deposited data

How the results depend on the processing

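Marco was the 1 call among the 10 genes under size factors, upper-quartile scaling, no filter, a minimum of 10 counts in every library, the exact test, DESeq2 and the replicate block; adding the log2 fold change threshold of 1.5 left 0. With each mouse left out the number was 0 to 2. Over all genes 1089 were called, 109 with the threshold of 1.5, 1913 with DESeq2, 66 with the replicate block and 1 to 1278 with each mouse left out. The 30 calls in the other lists became 45 without the filter, 51 with the exact test, 62 with DESeq2, 1 with the replicate block and 0 to 47 with each mouse left out. The replicate numbers do not pair the mice: correlations of same-numbered deviations were -0.0650, -0.176 and -0.0183. The median log2 fold change of the 10 genes ran from 0.08 to 0.37 with each mouse left out. Leaving out a mouse turned the sign of the log2 fold change for Krt79 (-0.088 to 0.30), Atp6v0d2 (-0.031 to 0.13), Ctsk (-0.10 to 0.25), Atp6v1b2 (-0.026 to 0.050), Cd36 (-0.066 to 0.0094), Inmt (-0.12 to 0.12), Lipe (-0.087 to 0.12), Mfap4 (-0.12 to 0.21), Pnpla2 (-0.030 to 0.067) and Scd1 (-0.18 to 0.21), and in mean log2 CPM for Krt79 (-0.10 to 0.33), Atp6v0d2 (-0.023 to 0.13) and Ctsk (-0.12 to 0.25). The log2 fold change of Lipe was 0.0065 with upper-quartile scaling and 0.0019 with the minimum of 10 counts, and Pnpla2 at -0.0064 without the filter. The 23 called genes named from the other lists kept their direction with each mouse left out. All of them had groups that did not overlap, so at fixed scaling this could not have come out otherwise. The causes of these shifts were not tested. With 3 mice per group the exact test cannot go below 0.1.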
